A study of Mus musculus with 12 samples.

Results

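The 8 genes described here are erythroid regulators and red cell membrane genes, measured in intra-aortic haematopoietic clusters of the mouse embryo. They are the transcription factor genes Gata1 and Klf1, the erythropoietin receptor gene Epor, and the membrane and membrane skeleton genes Slc4a1, Sptb, Ank1, Epb42 and Ermap. They were chosen by gene symbol, and all 8 were found among the 24138 genes of each deposited table. Epb42 is listed there under its older symbol Epb4.2, which RefSeq gives as a synonym. Each gene had 1 row.

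The clusters bud from the inner wall of the aorta, and the first blood stem cells are found among them. RNA came from 12 samples of the aorta-gonad-mesonephros region of C57BL/6 embryos, all sorted for CD31 and CD117 and against SSEA-1. At each of the ages E10.5 and E11.5 there were 3 samples of G1 cells, positive for the mKO2 reporter of Fucci Red animals, and 3 of S/G2/M cells, positive for the mAG reporter of Fucci Green animals. Fucci reporters are fluorescent proteins that accumulate in different parts of the cell cycle. Phase and reporter strain cannot be told apart, since every G1 sample was Fucci Red and every S/G2/M sample Fucci Green.

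The deposited tables hold 1 value per gene and group in FPKM, fragments scaled to transcript length and library size. No value of a single sample is given there, so no SD or SE between samples can be computed and the depth is unknown. The words rose and fell are kept for genes with a q under 0.05 in the authors' deposited table. The labels do not say that the 3 samples per group are separate litters, so these p-values and q-values may measure technical spread. The genes of the sort and of the clusters were measured in all 4 groups. In the tables of phases, Kit (CD117) had 12.7 to 28.9 FPKM, Pecam1 (CD31) 30.2 to 111 FPKM and Runx1 9.85 to 39.6 FPKM.

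Red cells form from progenitors in which GATA1 and KLF1 switch on the genes for globin, haem synthesis and the cell membrane, while erythropoietin, through its receptor, keeps the progenitors alive. The membrane of a red cell is held by a network of spectrin beneath it. Ankyrin ties this network to band 3, the anion exchanger that spans the membrane. In the embryo the first red cells come from the yolk sac and circulate through the aorta while the clusters form.

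RefSeq promoter sequences of GRCm38.p6 were matched for 6 of the 8 genes, Gata1, Klf1, Epor, Sptb, Epb42 and Ermap. The 250 bases before each start were searched on both strands for TGATAA, likewise AGATAA, as well as TGATAG and also AGATAG, letters that GATA factors bind, for CACCC, the core of sites bound by KLF1 and related factors, and for CANNTG, the E box. Any of the GATA words was found in 4 of the 6 promoters, Klf1, Epor, Epb42 and Ermap, against 26.5% of 32851 promoters. CACCC was found in 5 of the 6, all but Epb42, against 52.0% of all promoters. The E box was found in 5 of the 6, all but Ermap, against 66.2%. These matches are a description of letters and not of binding. The 4 stretches below belong to both transcription factor genes, the receptor gene and a membrane gene, Ermap, whose levels are compared after them. The promoters of the membrane genes Sptb, without a GATA word, and Epb42, without CACCC, are not shown. Each runs 5′ to 3′ on the strand of the gene, and capitals mark GATA words and CACCC, or their reverse complements. The stretches lie at chrX:7967938-7968009 (minus strand) for Gata1, chr8:84901862-84901927 (plus strand) for Klf1, chr9:21963601-21963670 (minus strand) for Epor and chr4:119190033-119190102 (minus strand) for Ermap.
Gata1: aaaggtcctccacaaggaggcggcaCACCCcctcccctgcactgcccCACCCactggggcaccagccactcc
Klf1: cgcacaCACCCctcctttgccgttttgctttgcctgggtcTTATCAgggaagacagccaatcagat
Epor: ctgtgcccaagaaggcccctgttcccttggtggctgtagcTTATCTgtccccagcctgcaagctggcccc
Ermap: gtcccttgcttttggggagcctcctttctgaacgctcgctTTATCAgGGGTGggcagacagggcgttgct

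The Klf1, Epor and Ermap stretches each hold 1 GATA word in reverse complement, with its first base 80, 54 and 67 bases before the RefSeq start. The Gata1 stretch holds CACCC at 2 places and no GATA word. Epor also has CACCC, with first bases at -150 and -121 from the start, outside the printed stretch. In the Ermap stretch the GATA word and the reverse complement of CACCC are separated by a single base.

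Of the 8 genes, Slc4a1 was the highest in each of the 4 groups, and the other 7 lay between 0.143 and 5.07 FPKM. The group values by gene that follow are means of the values in the 2 tables used for a group's comparisons, while each comparison further on gives the values of its own table. For 1 gene and group, values differed by at most 1.15-fold between tables, in Epb42 of E11.5 S/G2/M cells, and by a median of 1.04-fold. These differences come from the tables and not from samples, so they do not show whether neighbouring groups differ.

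Gata1 encodes the zinc finger transcription factor needed for red cells, platelets and mast cells, and lies on chromosome X (7959260 to 7967910, mm10, minus strand, 6 exons in its longest coding transcript). It had 2.54 FPKM in E10.5 G1, 3.60 FPKM in E10.5 S/G2/M, 1.73 FPKM in E11.5 G1 and 1.34 FPKM in E11.5 S/G2/M. Both values at E10.5 were above both at E11.5, and the highest was 2.68-fold the lowest. Klf1, the erythroid Krüppel-like factor on chromosome 8 (84901928 to 84905295, plus strand, 3 exons), had 1.72, 5.07, 2.24 and 2.66 FPKM in the same order. Klf1 was highest in E10.5 S/G2/M, as Gata1 was, but lowest in E10.5 G1.

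Epor lies on chromosome 9 (21958899 to 21963576, minus strand, 8 exons). Its values were 0.333 FPKM in E10.5 G1, 1.06 FPKM in E10.5 S/G2/M, 4.23 FPKM in E11.5 G1 and 1.80 FPKM in E11.5 S/G2/M. Both E11.5 groups stood above both E10.5 groups, whereas for Gata1 both E10.5 groups stood higher. The highest value was 12.7-fold the lowest.

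Slc4a1, the gene for band 3 on chromosome 11 (102348820 to 102365281, minus strand, 20 exons), had 14.8 FPKM in E10.5 G1, 16.2 FPKM in E10.5 S/G2/M, 15.9 FPKM in E11.5 G1 and 3.80 FPKM in E11.5 S/G2/M. The first 3 groups were thus within a narrow range, and E11.5 S/G2/M stood below them. In the age comparison of S/G2/M cells, 37.1% of tested genes had a higher value than Slc4a1 in their higher group, against 69.2% for Klf1 and 77.1% for Gata1.

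Sptb, which encodes beta-spectrin and lies on chromosome 12 (76580488 to 76710547, minus strand, 36 exons), had 0.711, 0.801, 1.27 and 0.542 FPKM in the same order of groups. Ank1, the ankyrin gene on chromosome 8 (22974836 to 23150497, plus strand, 44 exons), had 0.768, 1.57, 1.53 and 0.567 FPKM. Of the other 6 genes none has an annotated overlapping gene, but Sptb overlaps 2 and Ank1 overlaps 5 in GENCODE, some on the opposite strand. The sources used here do not say whether reads were counted by strand, so these 2 genes are less certain.

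Epb42, which encodes protein 4.2, a partner of band 3 and ankyrin, lies on chromosome 2 (121018217 to 121036755, minus strand, 13 exons). It had 1.10 FPKM in E10.5 G1, 1.83 FPKM in E10.5 S/G2/M, 1.54 FPKM in E11.5 G1 and 0.143 FPKM in E11.5 S/G2/M, so the last group was far below the others. Ermap, which encodes an erythroid membrane protein of the immunoglobulin superfamily, lies on chromosome 4 (119175457 to 119190011, minus strand, 13 exons). Its values were 1.67, 2.39, 3.95 and 0.499 FPKM. All 5 membrane genes were thus lowest in E11.5 S/G2/M, as was Gata1, whereas Klf1 and Epor were lowest in E10.5 G1. The share of all genes that were lowest in E11.5 S/G2/M was not counted.

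**Figure D1:**
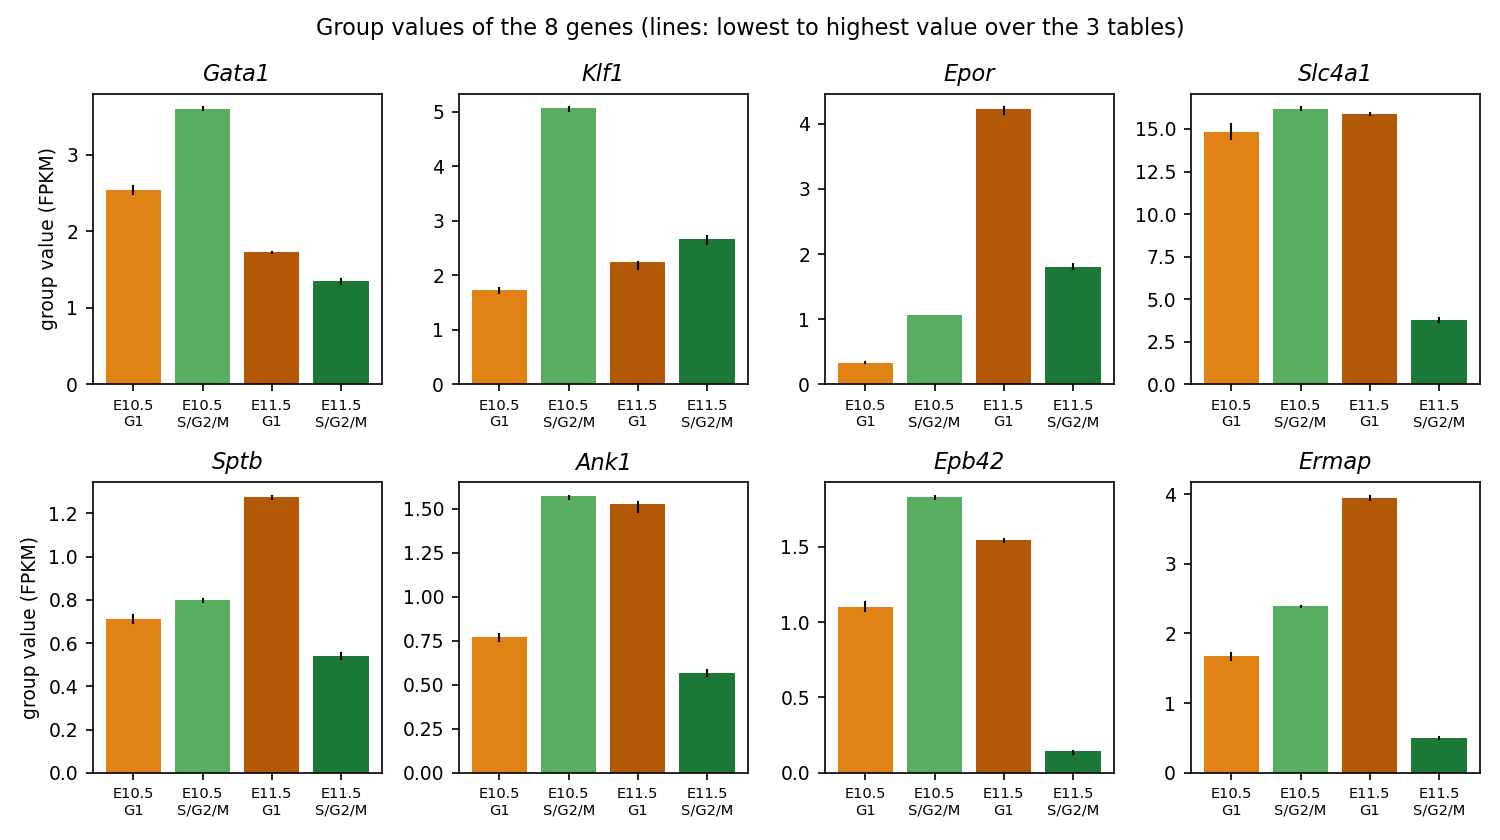
Group values of the 8 genes in FPKM, 1 panel per gene with its own axis. Bars are the mean of the 2 main deposited values per group and black lines span the lowest to the highest value over the 3 tables that hold the group, which is no spread between samples. In Slc4a1 the first 3 bars lie between 14.8 and 16.2 FPKM and the last at 3.80 FPKM.

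Phases were compared first at E10.5. All 8 genes were higher in S/G2/M, by 0.08 to 1.64 on the log2 scale, and none passed the test. Epor had 0.340 and 1.06 FPKM in G1 and S/G2/M (log2 fold change 1.64, q = 0.958 in the authors' deposited table). Klf1 had 1.77 and 5.07 FPKM (1.52, q = 0.924 in the authors' deposited table). Slc4a1 was nearly level, with 15.2 and 16.1 FPKM (0.08, q = 0.994 in the authors' deposited table).

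No member was called by the authors' test at E10.5, where 0.655% of 12984 tested genes were called in either direction, and no member had an unadjusted p under 0.05, against 6.69% of tested genes. The median log2 fold change of the 8 genes was 0.58 and that of all tested genes was -0.04, with 47.1% of tested genes higher in S/G2/M. At these levels the test called few genes. Of 1355 tested genes with 1 to 5 FPKM in the higher group and at least a 1 log2 unit difference, 1 was called. Epor was the only one of the 8 in that class. Gata1, Ank1, Epb42 and Ermap differed by less than 1 log2 unit, and Klf1, Slc4a1 and Sptb lay outside 1 to 5 FPKM.

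Phases were compared in the same way at E11.5. Here 7 of the 8 genes were lower in S/G2/M and Klf1 was the exception, with values of 2.23 and 2.60 FPKM. Slc4a1 went from 15.8 FPKM in the G1 cells to 3.70 FPKM in the others, a 4.27-fold lower value, with p = 0.00055 and q = 0.0650 in the authors' deposited table. Ermap had 3.92 and 0.487 FPKM, 8.06-fold lower (p = 0.0035, q = 0.213 in the authors' deposited table). Epb42 had 1.53 and 0.139 FPKM, a log2 fold change of -3.46, with p = 0.225 in the authors' deposited table. With a pseudocount of 1 FPKM the log2 fold changes were -1.84 for Slc4a1, -1.73 for Ermap and -1.15 for Epb42.

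At a q under 0.05 none of the 8 was called at E11.5 by the authors' test, where 0.701% of 12414 tested genes were called, and Slc4a1 and Ermap had an unadjusted p under 0.05, as did 8.27% of tested genes. Slc4a1 ranked 99 and Ermap 202 by p among all tested genes. At a q threshold of 0.085 Slc4a1 is called, but the share of all tested genes called at that threshold was not counted. The authors' own mark of significance in the deposited table also includes it. In the authors' deposited table of these groups in the other order Slc4a1 had a q of 0.0794. The median of the 8 genes was -1.36 and that of all tested genes -0.06, with 54.0% of tested genes lower in S/G2/M. Sptb had 1.27 and 0.529 FPKM, Ank1 1.52 and 0.552 FPKM, Epor 4.21 and 1.77 FPKM and Gata1 1.72 and 1.32 FPKM, and the q-values of these 4 in the authors' deposited table were 0.690 or higher. Only 1 of 1223 tested genes of 1 to 5 FPKM that differed by 1 log2 unit or more was called.

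In 7 of the 8 genes S/G2/M had the higher value at E10.5 and the lower one at E11.5. For Slc4a1 the log2 fold changes were 0.08 and -2.10, for Ermap 0.47 and -3.01 and for Epb42 0.68 and -3.46. A difference in the phase effect between ages was not tested, since that needs values per sample. In bulk samples fewer cells of a type and less of an RNA per cell cannot be told apart. Which of the cells sorted for CD31 and CD117 held these RNAs was not tested.

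**Figure D2:**
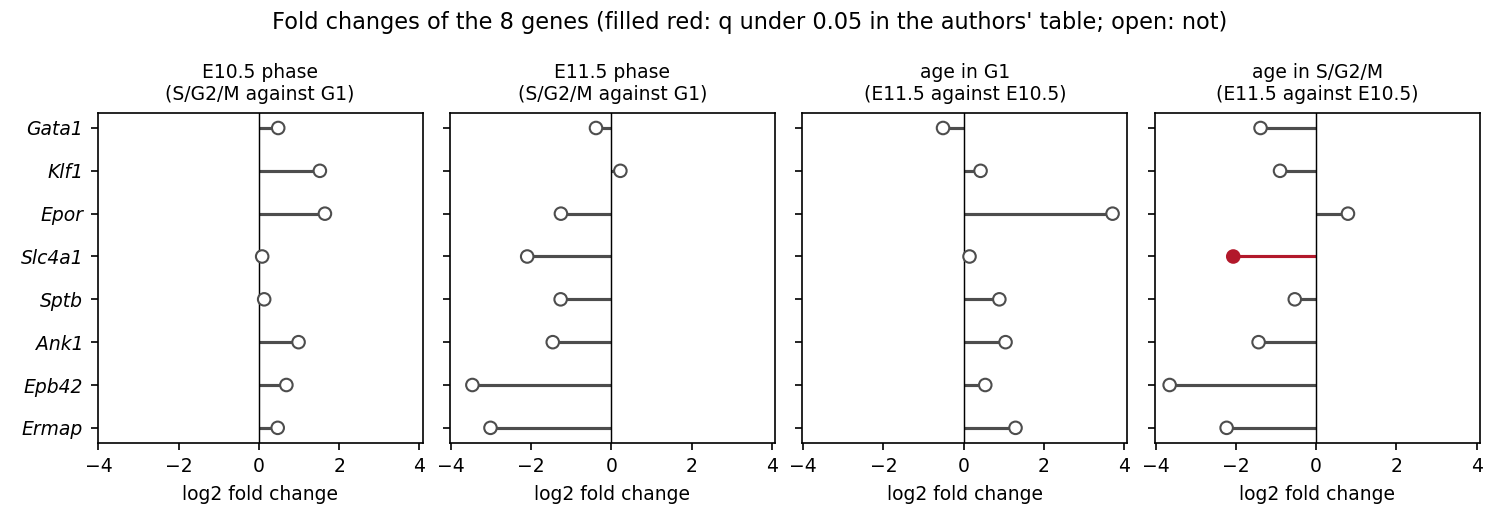
Log2 fold changes of the 8 genes in the 4 comparisons, from the deposited group values. Filled red points had a q-value under 0.05 in the authors' deposited table and open points did not. Slc4a1 in the comparison of ages in S/G2/M, at -2.06, is the filled point.

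Ages were then compared within a phase. In G1 7 of the 8 genes were higher at E11.5, Gata1 was lower with 2.48 and 1.74 FPKM, and none passed. Epor showed the largest fold change of the 8 in this comparison, from 0.326 to 4.25 FPKM (13.1-fold, p = 0.172, q = 0.568 in the authors' deposited table). With a pseudocount of 1 FPKM its log2 fold change was 1.99 in place of 3.71. Ermap had 1.63 and 3.98 FPKM (2.45-fold, q = 0.570 in the authors' deposited table). Slc4a1 was again nearly level, with 14.4 and 16.0 FPKM (q = 0.912 in the authors' deposited table).

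By the authors' test, 4.45% of 12953 tested genes were called in this comparison, against none of the 8 genes, and none of the 8 had an unadjusted p under 0.05, against 15.4% of tested genes. The median of the 8 was 0.71 and that of all tested genes 0.02, with 50.9% of tested genes higher at E11.5. Of 1644 tested genes of 1 to 5 FPKM that differed by 1 log2 unit or more, 11 were called, or 0.669%.

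In S/G2/M the ages gave the only call among the 8 genes. Slc4a1 fell 4.18-fold with age, from 16.3 to 3.89 FPKM, with p = 0.00155 and q = 0.0405 in the authors' deposited table. No other gene of the 8 passed in any of the 4 comparisons. In all, 7 of the 8 genes were lower at E11.5 and Epor was higher, with 1.06 and 1.84 FPKM.

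Lower calls were made for 1.93% of 12768 tested genes and calls in either direction for 4.07%. Ermap had 2.40 and 0.511 FPKM, 4.69-fold lower, with p = 0.0207 and q = 0.223 in the authors' deposited table. Slc4a1 and Ermap were thus the 2 members of unadjusted p under 0.05, a share that was 13.9% over tested genes. Epb42 had 1.84 and 0.147 FPKM (12.5-fold lower, q = 0.680), and Gata1 had 3.58 and 1.37 FPKM (2.61-fold lower, q = 0.557 in the authors' deposited table). Klf1 had 5.08 and 2.72 FPKM, Ank1 1.57 and 0.582 FPKM and Sptb 0.803 and 0.556 FPKM, each with a q of 0.733 or higher in the authors' deposited table. The median of the 8 was -1.41 against 0.03 for all tested genes, of which 47.9% were lower at E11.5.

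The level of a gene went with whether it was called. Of tested genes with 10 to 20 FPKM in the higher group, the range of Slc4a1, that differed by 1 log2 unit or more, 99 of 457 (21.7%) were called by age in S/G2/M. Among those of 1 to 5 FPKM, the range of Ermap, Epb42, Gata1 and Ank1, 27 of 1515 (1.78%) were called. Epor lay in that range but differed by only 0.79 log2 units. Slc4a1, Ermap and Epb42 differed by more than 2 log2 units. At 2 log2 units or more, 54 of 122 (44.3%) were called at 10 to 20 FPKM. At 1 to 5 FPKM these were 24 of 698 (3.44%). Epb42 and Ermap had larger folds than Slc4a1 without a pseudocount, at lower levels. With a pseudocount of 1 FPKM the order turned, with log2 fold changes of -1.31 for Epb42, -1.17 for Ermap and -1.82 for Slc4a1. A q that misses the threshold does not show that the other 7 genes were alike in both groups.

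**Figure D3:**
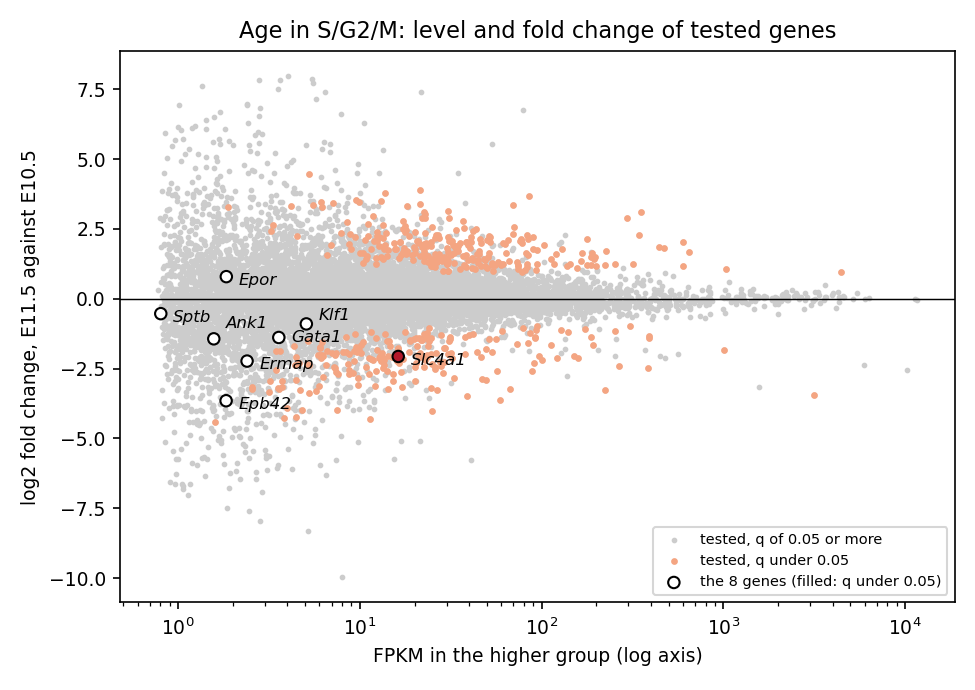
Tested genes above 0 in both groups in S/G2/M cells, E11.5 against E10.5, by FPKM in the higher group (log axis) and log2 fold change. Slc4a1, at 16.3 FPKM, passes, and Epb42, at 1.84 FPKM and with no pseudocount in its fold, does not.

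Each group of samples enters 2 of the 4 comparisons. The phase comparison at E11.5 and the age comparison in S/G2/M thus share the E11.5 S/G2/M samples, in which the 5 membrane genes were lowest, and are not independent of each other.

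Other genes of the red cell were counted from lists without the 8 genes. These shares over all tested genes stand beside every list below. Between phases at E10.5 and E11.5, 0.655% and 0.701% were called and 6.69% and 8.27% had an unadjusted p under 0.05. By age in G1 and S/G2/M, 4.45% and 4.07% were called and 15.4% and 13.9% had an unadjusted p under 0.05. No list was tested against these shares. Of 7 tested globin and globin chaperone genes, Hba-x, Hba-a2 and Hbb-bh1 fell between G1 and S/G2/M at E11.5 and all 7 were lower, with a median of -1.99 over the 6 above 0 in both groups. With age in S/G2/M, Hba-a2 and Hbb-bh1 fell of 6 tested (median -2.46). Between phases at E10.5 none of 6 passed, none with an unadjusted p under 0.05 (median 0.28), and by age in G1 none of 7, 1 of them with an unadjusted p under 0.05 (median 0.48). The summed level of the list was 12256 and 3132 FPKM in G1 and S/G2/M at E11.5. At E10.5 the sums were 15405 and 19574 FPKM. Globin genes share sequence, which makes the value of each single gene less certain.

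Of the other red cell membrane, skeleton and surface genes, 25 tested at E10.5 and 24 tested at E11.5, none passed between phases, with 3 and 2 of unadjusted p under 0.05 and medians of -0.07 and -0.23. By age 1 of 25 rose in G1 (Cd44) and 3 of 23 in S/G2/M, and none fell, with a median of 0.27 in each. The share called over all tested genes was 4.45% in G1 and 4.07% in S/G2/M. Those that rose in S/G2/M were Cd47, the signal that protects cells from phagocytosis, Cd44, a hyaluronan receptor, and Slc29a1, a nucleoside transporter, and all 3 are also made by other blood cells. Rhag, the Rh-associated glycoprotein gene, was singled out after its values were seen. In S/G2/M, where 14 of the 23 tested genes of the list were higher at E11.5, it had 2.03 and 0.306 FPKM at the younger and the older age (q = 0.724 in the authors' deposited table).

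Of 17 genes of haem synthesis and iron uptake none passed in any of the 4 comparisons. Unadjusted p under 0.05 was listed for 2 of them between phases at E10.5, 2 between phases at E11.5, 1 by age in G1 and 5 by age in S/G2/M. Alas2, the erythroid enzyme that starts haem synthesis, also singled out after its values were seen, had 11.4 and 1.21 FPKM at the younger and the older age in S/G2/M (q = 0.208 in the authors' deposited table). Tfrc, the transferrin receptor, had 32.5 and 11.9 FPKM in G1 and S/G2/M at E11.5 (q = 0.0650 in the authors' deposited table). The medians of this list were 0.01 between phases at E11.5 and -0.41 by age in S/G2/M.

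Among genes of late red cell maturation none of 17 passed between phases at E10.5 or at E11.5, and none of 16 by age in S/G2/M. Unadjusted p under 0.05 was listed for 0, 1 and 2 of them. In G1 cells 12 of 18 were lower at E11.5, with sums of 717 and 577 FPKM and a median of -0.33 over the 16 above 0 in both groups. The 3 that rose were Blvrb, Car1 and Ctse. Blvrb, a biliverdin reductase, had 15.9 and 80.0 FPKM, and Car1 and Ctse were listed at 0 at E10.5 and had 7.71 and 0.997 FPKM at E11.5.

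Of 12 tested genes of erythropoietin signalling, 3 rose in G1 (Sh2b3, Lyn and Ptpn6) and 2 in S/G2/M (Lyn and Ptpn6), and none fell. Lyn, a Src family kinase, had 20.6 and 66.0 FPKM in G1 at E10.5 and E11.5, and Ptpn6, a phosphatase that dampens receptor signals, had 5.08 and 29.4 FPKM. Jak2, the kinase bound to the receptor, had 4.30 and 8.83 FPKM (q = 0.256 in the authors' deposited table). None of the 12 passed between phases at either age, with 0 and 1 of unadjusted p under 0.05 at E10.5 and E11.5. All of these genes also act downstream of other receptors.

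Of 20 other transcription factors and cofactors of erythroid cells, 6 rose with age in S/G2/M and none fell, with a median of 0.86. They were Lmo2, Bcl11a, Myb, Cbfa2t3, Ikzf1 and Gata2, all of which also act in progenitors. Myb, a progenitor factor, had 7.62 and 31.9 FPKM, and Bcl11a, a repressor of embryonic globin genes, rose 4.36-fold to 46.0 FPKM. In G1 3 of 20 rose, Ikzf1, Bach1 and Nfe2l2. None passed between phases, with 1 and 3 of unadjusted p under 0.05 at E10.5 and E11.5. Gfi1b and Tal1 were singled out after their values were seen. Gfi1b, a repressor of the red cell and platelet lineages, had 2.41 and 22.9 FPKM in G1 and S/G2/M at E11.5 (q = 0.686 in the authors' deposited table). Tal1, which forms a complex with GATA1, was between 10.4 and 14.1 FPKM in all 4 groups of the tables of phases.

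**Figure D4:**
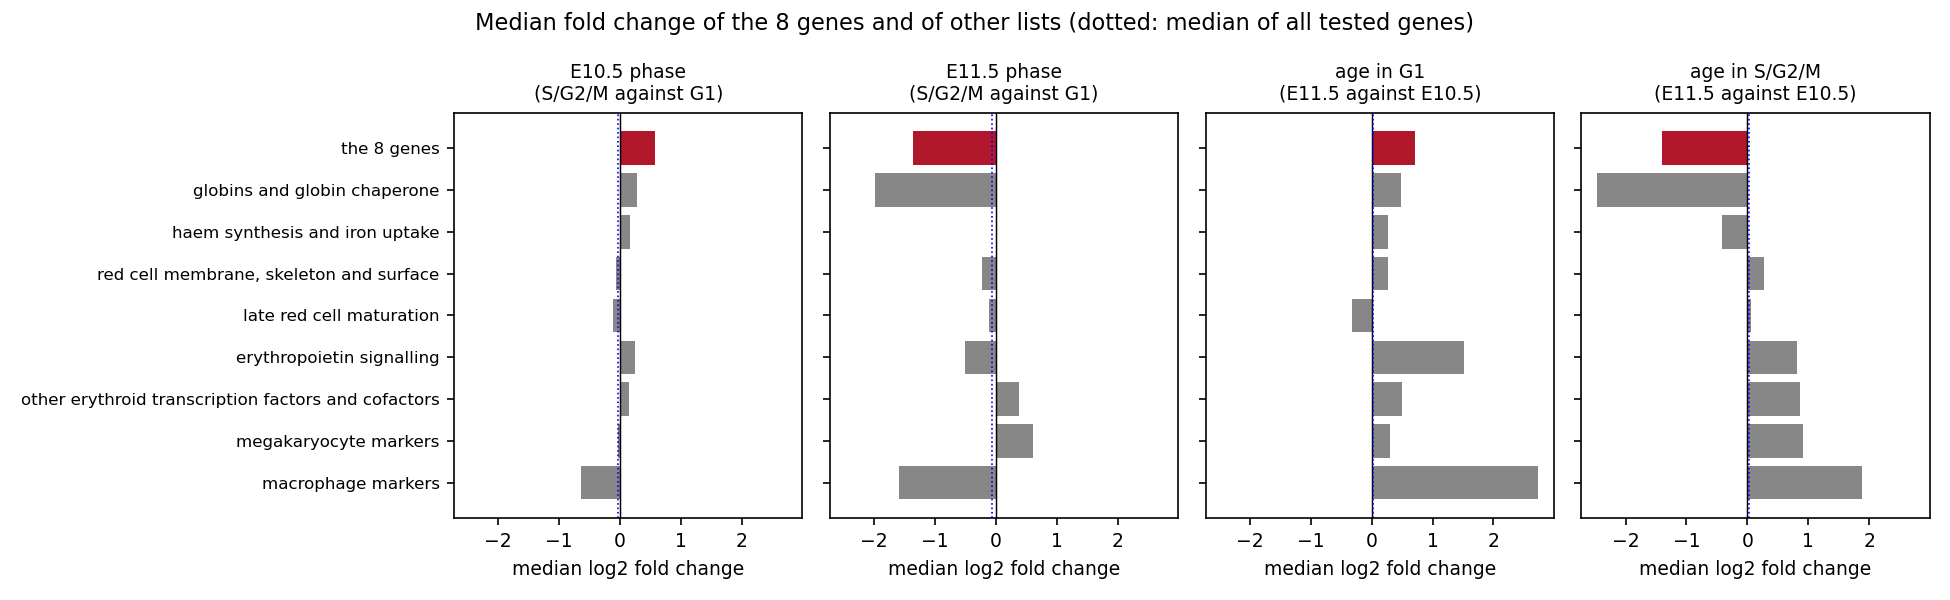
Median log2 fold change of the 8 genes (red) and of the tested members of 8 other lists above 0 in both groups (grey), in the 4 comparisons, with the median of all tested genes as a dotted line. In S/G2/M by age the 8 genes (-1.41) and the globins (-2.46) are below 0, and the macrophage markers (1.89) are above it.

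Markers of other cell types changed in some of the same comparisons. Between G1 and S/G2/M at E11.5, 9 of 23 tested macrophage markers fell and all 23 were lower, with summed levels of 4694 and 1750 FPKM. They were Adgre1, C1qa, C1qb, C1qc, Cd68, Csf1r, Cx3cr1, Hmox1 and Slc40a1. Macrophages take up and digest red cells. Whether they had a part in the lower Slc4a1 of these cells was not tested. In S/G2/M by age, where Slc4a1 fell, 10 of 22 macrophage markers rose, Adgre1, C1qb, C1qc, Csf1r, Cx3cr1, Fcer1g, Lyz2, Maf, Mrc1 and Tyrobp, and the summed levels were 511 and 1821 FPKM. In G1 by age 19 of 23 rose, from a sum of 763 to 4748 FPKM, while Slc4a1 had 14.4 and 16.0 FPKM. They were these 10 with Aif1, C1qa, Cd68, Fcgr3, Hmox1, Itgam, Mertk, Ptprc and Slc40a1. At E10.5, where all 8 genes were higher in S/G2/M, 19 of 22 macrophage markers were lower (sums of 795 and 519 FPKM, median -0.64). None of the 22 passed and 5 had an unadjusted p under 0.05. Cd163, a marker of some macrophages singled out after its values were seen, was at 0 to 0.0207 FPKM in every group.

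Megakaryocytes, which also use Gata1, gave sums of 565 and 695 FPKM in G1 and S/G2/M at E11.5. There 15 of 18 markers were higher in S/G2/M and 1 rose, with a median of 0.61, and 4 had an unadjusted p under 0.05. At E10.5 none of 18 passed, 2 of them with an unadjusted p under 0.05. By age in G1 2 of 19 rose, Ppbp and Fli1. In S/G2/M by age 2 of 19 rose, Pf4 among them, and the sums were 343 and 726 FPKM. Mast cells and eosinophils, further users of Gata1, had 5 to 8 of 13 markers at 0 in both groups of a comparison. Their summed level was at most 0.694 FPKM at E10.5 and 14.0 to 36.8 FPKM at E11.5. None of the 0 to 3 tested in a comparison passed, and 1, between phases at E11.5, had an unadjusted p under 0.05.

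Endothelial markers and stem and progenitor genes were counted since the clusters hold both programmes. Of 20 endothelial markers Gja5 fell between G1 and S/G2/M at E10.5, none passed between phases at E11.5 (2 of unadjusted p under 0.05), 2 rose with age in G1 (Pecam1 and Robo4) and 5 in S/G2/M (Erg, Flt1, Pecam1, Robo4 and Tie1). Of 12 stem and progenitor genes none passed between phases at E10.5 (3 of unadjusted p under 0.05), and 2 rose in S/G2/M at E11.5 (Hlf and Mpo). With age 4 of 11 rose in G1 (Mpo, Ptprc, Runx1 and Spi1) and 6 of 12 in S/G2/M (Cd34, Hlf, Kit, Mpo, Myb and Runx1), where Slc4a1 fell.

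The genes whose pattern over the 4 groups was most like the mean of the 8 were ranked among 10436 genes of at least 1 FPKM in every group. Epor, Sptb, Ank1, Epb42 and Ermap were below this minimum in at least 1 group, so genes with values as low could not be ranked. Likeness was the Euclidean distance between log2 values centred on each gene's mean. The nearest 5 were Slc35f1 (distance 0.157), Prss23 (0.240), Wdr86 (0.255), Irf2bp1 (0.256) and Slc25a37 (0.278). The likeness rests on 4 group values per gene. The nearest, Slc35f1, had 1.76 FPKM in E10.5 G1, 2.89 FPKM in E10.5 S/G2/M, 3.61 FPKM in E11.5 G1 and 1.12 FPKM in E11.5 S/G2/M. Slc25a37, which carries iron into mitochondria, was the farthest of the 5 and had 12.0, 16.5, 17.5 and 6.26 FPKM in the same order. Among the 8 themselves Ank1 lay nearest to their mean, at 0.198, and Epor farthest, at 2.59. That mean includes the gene itself, so these distances do not compare with those of the ranked genes.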

How the data were processed

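Total RNA of sorted cells was sequenced. The build mm8 and bowtie 0.12.2 are named per the labels' protocols. The submitters' processing notes name TopHat, Cuffdiff, CASAVA 1.4 and mm10, without saying what each did. All 8 loci overlapped the GENCODE gene of the same name on GRCm38 (mm10). The authors deposited FPKM values of groups of 3 samples, with p-values and q-values, in 6 tables. The tables' group name G2 was read as S/G2/M. A Benjamini-Hochberg adjustment of the deposited p-values over tested genes gave the deposited q-values within 5.27e-07.

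Fold changes were computed here as ratios of deposited values without a pseudocount, and each list was counted by the authors' q-value at 0.05. The fold change and Benjamini-Hochberg steps used here were tested on simulated data with the same error for every gene. This does not test the authors' calls. The analysis planned limma for values per sample, which the tables do not hold, so calls rest on the authors' test. The text names the 8 genes, from each of 11 lists called genes and up to 4 others of the highest FPKM, and the 5 genes of most like pattern. Not every called gene is named, and some genes of the lists are not reported here. Genes named outside this rule are marked as singled out after their values were seen. The members and lists were chosen with earlier results of these data known. Exon numbers are those of the longest coding GENCODE transcript. Scripts ran under Python 3.11.15 with pandas 2.3.3, matplotlib 3.10.9 and numpy 2.4.6.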

Additional observations from a re-analysis of the deposited data

How the results depend on the processing

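The 4 counts and medians and the fold changes of the 8 genes were recomputed with q-values under 0.01 or 0.085, calls kept only past 1 log2 unit, minimum values of 1 or 5 FPKM, a pseudocount of 1, median scaling, sums over rows of a symbol and, for phases, the tables in the other order. All 244 fold changes kept their direction. Only median scaling and the tables in the other order could have reversed one, since the other settings leave the sign fixed. The called count at E11.5 became 1 (Slc4a1) at a threshold of 0.085, and that by age in S/G2/M became 0 at 0.01. With at least 5 FPKM the E11.5 median was -2.10, since only Slc4a1 was left, and the q of Slc4a1 by age in S/G2/M was 0.0328. With a pseudocount of 1 the medians by phase were 0.38 and -0.81, and by age 0.37 and -0.83. Leaving out a replicate could not be run. No paired analysis was possible because the tables hold 1 value per group. Depth is unknown.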
